A study of Oryctolagus cuniculus with 6 samples.

Results

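The genes described here are GPNMB and 9 genes tied to macrophages and microglia, 10 of the 28788 genes counted in 6 rabbit retina samples. They were found by their symbols: GPNMB, CSF1R, CD68, AIF1, TYROBP, TREM2, PTPRC, LAPTM5, CD163 and CSF1. GPNMB was chosen because its increase in the diseased retinas was among the largest, so its values are given as a description without a test. The other 9 genes were tested in the comparison of all 18697 genes with enough counts. All 10 passed the filter on low counts, and each would also have passed on the normal samples alone, CD163 with the narrowest margin.

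The study sequenced retinal polyA RNA of adult rabbits with proliferative vitreoretinopathy (PVR), a disease in which cells grow and contract on the surfaces of a detached or wounded retina, and of normal rabbits. The PVR group (n = 3) had a scleral puncture through which vitreous was withdrawn and platelet-rich plasma was injected into the vitreous cavity, and the normal group (n = 3) carries only that name in the labels. Strain, sex, exact age, the time between injury and collection and the number of rabbits behind each sample are not given in the sources used here, so p-values measure the spread between these samples, which may be technical. The injected plasma and the wound were given together, and their effects cannot be told apart.

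Microglia are the resident macrophages of the retina, and after injury they are joined by macrophages that arise from blood monocytes. Both depend on the receptor CSF1R, which binds the growth factors CSF1 and IL34. TREM2 is a receptor for lipids and cell debris on the same cells, and it signals through the adaptor TYROBP. GPNMB is a transmembrane glycoprotein of phagosomes, lysosomes and melanosomes, made by phagocytes that have taken up lipid and by pigment cells, and its gene is a known target of the MITF and TFE family of transcription factors.

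The samples held from 31904593 to 43035080 counts assigned to genes. Retinal neuron genes were abundant in every sample, with a summed level of 12415 to 19641 FPKM over 11 genes (FPKM counts fragments per kilobase of transcript, scaled to the size of the library, and allows levels of different genes to be compared). Normal replicate 2 stood apart from all other samples by its lens genes, with a summed level of 35103 FPKM over 8 genes against 13.2 and 16.2 FPKM in the other normal samples and 283 to 331 FPKM in PVR. Normal replicate 3 had the lowest value of the normal samples for most macrophage and microglia genes. Values without each of these libraries are given where a result rests on them.

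In the PVR samples GPNMB was the most abundant of the 10 genes, at 16.8 ± 3.73 FPKM (SD, n = 3) against 2.05 ± 0.153 FPKM (SD, n = 3) in the normal samples. The other 9 genes also had higher values in every PVR sample than in any normal sample, but by smaller margins, with fitted log2 fold changes from 0.48 for CSF1R to 1.61 for PTPRC. Of these 9, only CSF1, the growth factor of the macrophage lineage, passed both thresholds. The median log2 fold change of the 9 was 1.21, against -0.01 for all genes tested, and with normal replicate 3 left out it was 0.92. Groups did not overlap, with PVR higher, for all 9, against 13.4% of all genes tested; for GPNMB the choice of the gene fixed this. A higher level in bulk tissue can come from more cells of a type or from more RNA per cell, and these cannot be told apart here. The 10 genes were measured in the same samples and can be made by the same cells, so they are not independent of each other.

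**Figure D1:**
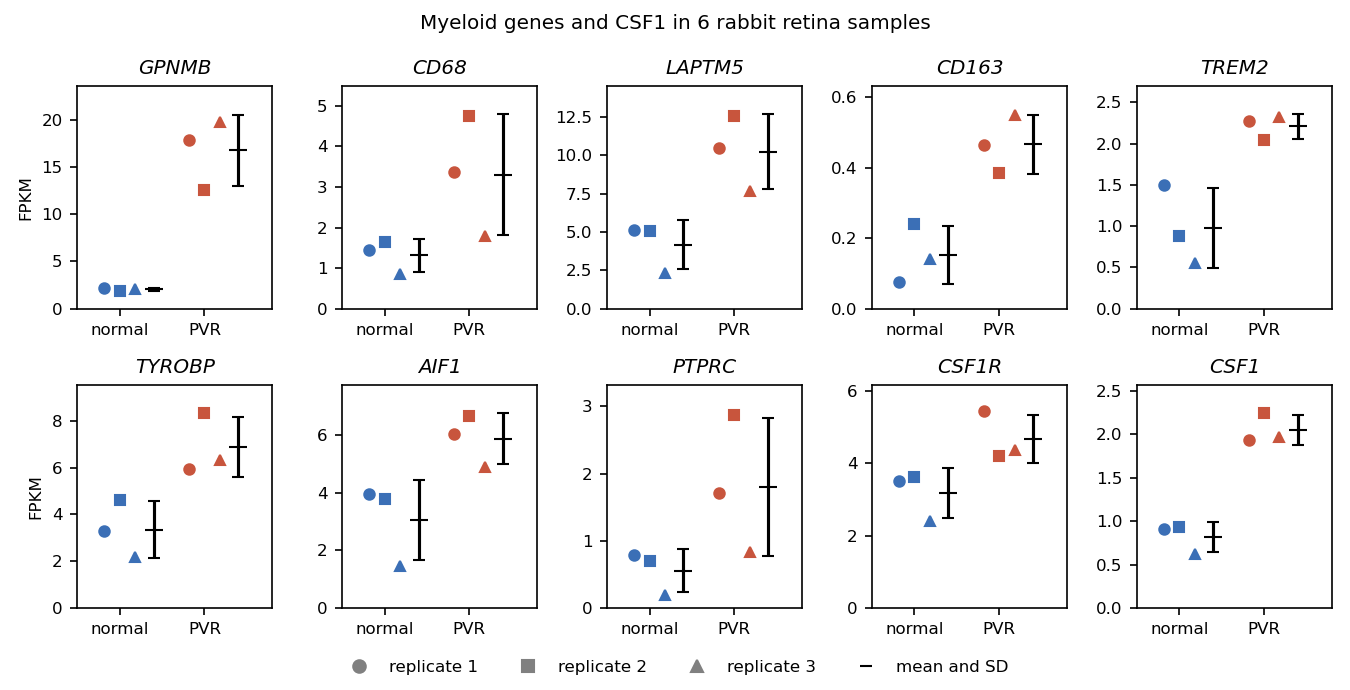
FPKM (vertical axis, from 0, a scale of its own for each gene) of GPNMB and the 9 other genes in 3 normal (blue) and 3 PVR (red) retina samples, with marker shapes for the replicate numbers and black bars for the mean and SD of each group. Every red point lies above every blue point of the same gene, with the widest gap for GPNMB (2.19 FPKM in the highest normal sample, 12.6 FPKM in the lowest PVR sample).

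GPNMB stood at 2.19, 1.89 and 2.09 FPKM in normal replicates 1, 2 and 3 and at 17.9, 12.6 and 19.8 FPKM in PVR replicates 1, 2 and 3. The normal samples were nearly level, PVR replicate 2 was the lowest of the PVR samples, and the groups lay far apart. These values rested on 206 to 228 counts per normal sample and 1093 to 2284 counts per PVR sample. The mean FPKM in PVR was 8.18 times the normal mean, and the fitted log2 fold change was 2.96 (standard error, SE, 0.20). With each sample left out in turn it lay between 2.81 and 3.14. Among symbol-bearing genes without overlap between groups, whose log2 CPM (counts scaled to the size of the library) averaged at least 3 and whose adjusted p was below 0.05, ordered by their increase, GPNMB stood at position 3, just below CEBPD at 2.99 and just above EDNRB at 2.75.

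CSF1 was the gene of the 9 that passed the test. CSF1 drives survival and growth of macrophages and microglia. Its levels were 0.905, 0.933 and 0.619 FPKM in the normal samples and 1.94, 2.25 and 1.97 FPKM in the PVR samples. The lowest PVR sample was 1.93 times the highest normal sample after scaling for library size, the widest gap after that of GPNMB. By the quasi-likelihood test of edgeR its log2 fold change was 1.25 (SE 0.23), with an adjusted p of 0.0478 after Benjamini-Hochberg correction over all genes tested. A gene was called changed where the adjusted p was under 0.05 and the log2 fold change passed 1, which is a 2-fold difference. By this rule 1 of the 9 genes was higher in PVR, against 0.69% of all genes tested. With edgeR the call held without normal replicate 3 (adjusted p = 0.0417), but it was lost without each of the other samples, with adjusted p of 0.129 and 0.111 without normal replicates 1 and 2 and of 0.228, 0.118 and 0.0572 without PVR replicates 1, 2 and 3. The log2 fold change in these fits stayed between 1.08 and 1.38.

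CSF1R, the tyrosine kinase receptor for CSF1 and IL34, differed least. It was measured at 3.52, 3.63 and 2.39 FPKM in the normal samples and at 5.45, 4.20 and 4.38 FPKM in the PVR samples. Normal replicate 3 was low, and PVR replicate 2 was only 1.06 times normal replicate 2 after scaling for library size. edgeR gave a log2 fold change of 0.48 (95% interval -0.01 to 0.98, edgeR adjusted p = 0.245), and without normal replicate 3 it was 0.31. Receptor and ligand therefore stood in a different proportion in the groups, since the FPKM ratio of CSF1R to CSF1 was 3.87 to 3.89 in normal samples and 1.86 to 2.81 in PVR, a difference given without a test. The other ligand, IL34, had a log2 fold change of 0.29 (SE 0.18, edgeR adjusted p = 0.393), and its groups overlapped. The FPKM ratio of CSF1 to IL34 was 0.306 to 0.428 in normal and 0.603 to 0.892 in PVR samples.

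TREM2 and TYROBP code for a receptor and its signalling adaptor. TREM2 had 1.51, 0.875 and 0.549 FPKM in the normal samples and 2.27, 2.04 and 2.32 FPKM in the PVR samples. The PVR samples were close to each other, whereas the normal samples spread over a 2.80-fold range. Its log2 fold change was 1.11 (SE 0.41, edgeR adjusted p = 0.185), and 0.82 without normal replicate 3. TYROBP had 3.28, 4.59 and 2.18 FPKM in the normal samples and 5.95, 8.34 and 6.33 FPKM in the PVR samples. PVR replicate 1, the lowest of its group, was 1.20 times normal replicate 2, the highest of the normal group. For TYROBP the log2 fold change was 0.96 (SE 0.32, edgeR adjusted p = 0.16), and 0.72 without normal replicate 3.

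LAPTM5 and CD68 code for lysosomal membrane proteins of leukocytes and of phagocytes. LAPTM5 was the most abundant of the 10 genes in the normal retina, at 5.14, 5.07 and 2.31 FPKM, and had 10.5, 12.6 and 7.67 FPKM in PVR. After scaling for library size the groups were separated by a factor of 1.43, and normal replicate 3 was well below the other normal samples. It differed by 1.21 on the log2 scale (SE 0.33, edgeR adjusted p = 0.11), and 0.92 without normal replicate 3. CD68 had 1.44, 1.64 and 0.864 FPKM in the normal samples and 3.37, 4.76 and 1.78 FPKM in PVR. PVR replicate 3 almost reached the highest normal sample, at 1.02 times its level. For CD68 the log2 fold change was 1.24 (SE 0.42, edgeR adjusted p = 0.16), and 1.01 without normal replicate 3.

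CD163, AIF1 and PTPRC mark different breadths of the leukocyte lineage. CD163, the scavenger receptor for haemoglobin on macrophages, was the lowest of the 10 genes, at 0.0759, 0.239 and 0.140 FPKM in the normal samples and 0.464, 0.384 and 0.550 FPKM in PVR. Its normal values rested on 10, 33 and 19 counts, and it was the only gene of the 9 that was not lowest in normal replicate 3. The log2 fold change was 1.54 (SE 0.48, edgeR adjusted p = 0.139). AIF1 codes for the actin-binding protein IBA1 used to stain microglia. It had 3.95, 3.77 and 1.47 FPKM in the normal samples and 6.06, 6.68 and 4.91 FPKM in PVR. Without normal replicate 3, far below the others, its log2 fold change of 0.86 (95% interval -0.07 to 1.79, edgeR adjusted p = 0.265) became 0.52. PTPRC codes for CD45, the phosphatase found on all leukocytes, so it also counts lymphocytes and neutrophils. It had 0.786, 0.691 and 0.190 FPKM in the normal samples and 1.70, 2.88 and 0.829 FPKM in PVR. PVR replicate 3 was 1.02 times the highest normal sample, and both groups spread widely. For PTPRC the log2 fold change was 1.61 (SE 0.60, edgeR adjusted p = 0.19), and 1.20 without normal replicate 3.

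**Figure D2:**
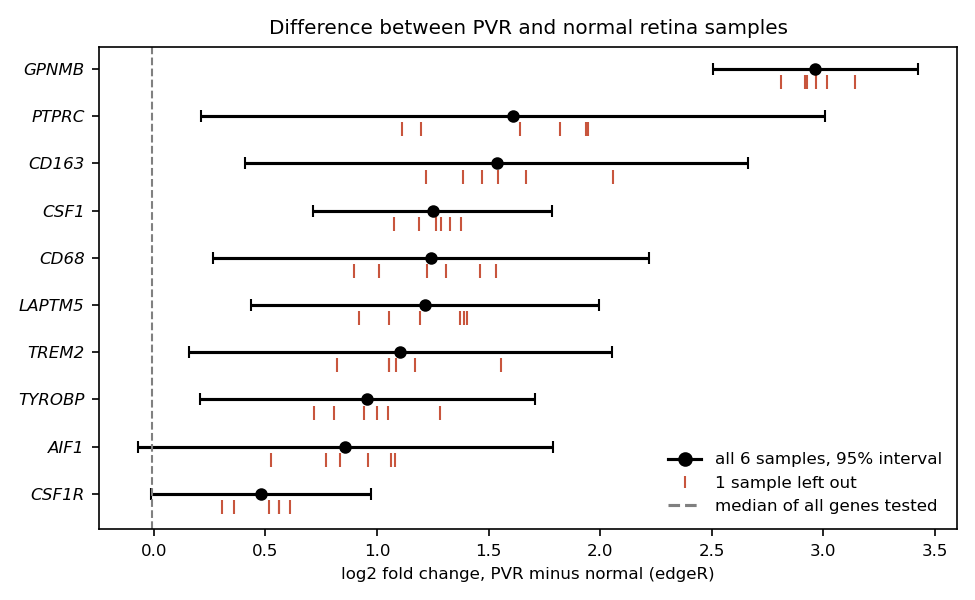
Log2 fold change of PVR minus normal from edgeR (horizontal axis) for each gene, with the fit of all 6 samples and its 95% interval (black), the fits with 1 sample left out (red ticks) and the median of all genes tested (dashed line). GPNMB at 2.96 lies to the right of the other 9, and the intervals of CSF1R and AIF1 include 0. The interval of GPNMB is a description, since the gene was chosen by this difference.

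Before adjustment, 7 of the 9 genes had a p under 0.05 with PVR higher, against 11.3% of all genes tested, and CSF1R and AIF1 did not. DESeq2, the tool the study used, called 4 of the 9, namely CSF1 (DESeq2 adjusted p = 7.48e-05), LAPTM5 (0.00249), PTPRC (0.0257) and CD68 (0.048). It called 519 genes higher in PVR where edgeR called 129. The adjusted p of each of CSF1R, AIF1, TYROBP, TREM2 and CD163 was above 0.05 with edgeR, DESeq2, limma-voom and all other alternatives.

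The genes varied together in part. In the normal group, replicate 3 was the lowest sample for 8 of the 9 genes, which was so for 37.7% of all genes tested. Relative to the mean of the other normal samples, its level was 0.249 for PTPRC, 0.368 for AIF1 and 0.647 for CSF1R, but 0.993 for GPNMB. GPNMB thus differed by at most 1.13-fold among normal samples in which PTPRC differed by 4.22-fold. In the PVR group, replicate 2 was the highest sample for CD68, AIF1, TYROBP, PTPRC, LAPTM5 and CSF1, 6 of the 9 (39.8% of all genes tested). The same sample was the lowest of the PVR samples for GPNMB, CSF1R, TREM2 and CD163.

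**Figure D3:**
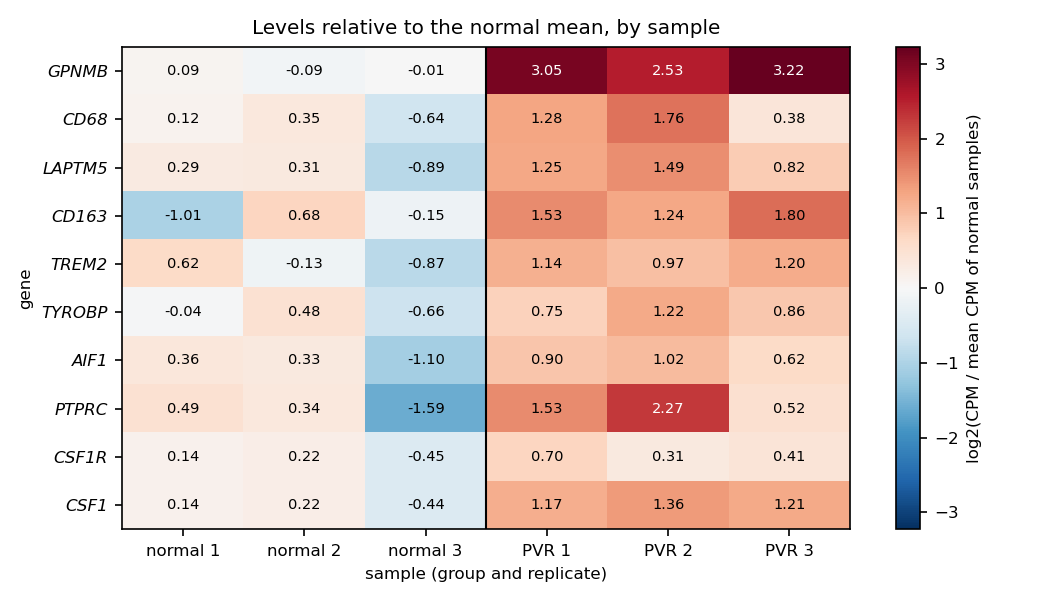
Log2 of the CPM of each sample (columns) over the mean CPM of the normal samples, for GPNMB and the 9 other genes (rows), from blue (lower) to red (higher). Normal replicate 3 is blue for most genes (-1.59 for PTPRC) but not for GPNMB (-0.01), and PVR replicate 2 is the darkest PVR sample for PTPRC (2.27) and the palest for GPNMB (2.53).

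These patterns ran beside those of other cells in the same libraries. JCHAIN, a plasma cell gene, had 920, 1257 and 176 counts in normal and 2163, 4660 and 475 in PVR samples, so that replicate 3 was the lowest of each group, as it was for PTPRC. Over the 16 lymphocyte genes found in the files, summed FPKM was 4.18 to 24.6 in normal and 9.30 to 105 in PVR samples, and 0 of the 8 tested passed the test with edgeR, with DESeq2 or at an unadjusted p under 0.05. CD3E had no count in normal replicate 3 and none in PVR replicate 3. COL1A1, a fibroblast gene, had 1817, 190 and 4485 counts in PVR replicates 1, 2 and 3, and was low in PVR replicate 2, the PVR sample with the lowest GPNMB. Of the 6 fibroblast genes, 2 were highest in PVR replicate 2, so not all of them shared the pattern of COL1A1. That count is near the share of all genes tested (39.8%), and it does not describe the other fibroblast genes. Over 6 fibroblast genes, summed FPKM was 30.7 to 43.0 in normal and 50.2 to 86.6 in PVR samples. None of the 6 passed the test with edgeR or DESeq2, and 3 had an unadjusted p under 0.05 with PVR higher (11.3% of all genes tested). COL1A1 was called higher without PVR replicate 2. The part of these cells in the values of the 10 genes was not tested.

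In order of their level, the normal samples had LAPTM5 first at 4.17 ± 1.61 FPKM (SD, n = 3), followed by TYROBP, CSF1R and AIF1, and GPNMB was the fifth. Below it came CD68, TREM2, CSF1, PTPRC and, at 0.152 ± 0.0822 FPKM (SD, n = 3), CD163. The ranges of neighbours in this order overlapped, except those of GPNMB and CD68. In PVR GPNMB moved to the top. It did not overlap with LAPTM5, at 10.2 ± 2.45 FPKM (SD, n = 3), but in PVR replicate 2 it was only 1.005 times as high. The others kept their places, apart from AIF1 and CSF1R, which traded theirs. Only GPNMB and LAPTM5, and PTPRC and CD163, did not overlap as neighbours in PVR.

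The share of GPNMB in the summed FPKM of the 10 genes was 9.59%, 8.08% and 16.3% in normal and 32.2%, 22.3% and 39.2% in PVR samples. The summed FPKM of the other 9 genes was 20.6, 21.4 and 10.7 in normal samples and 37.7, 44.1 and 30.7 in PVR. GPNMB relative to CSF1R ranged from 0.520 to 0.873 in the normal samples and from 3.01 to 4.53 in PVR. Relative to CD68 it ranged from 1.15 to 2.42 and from 2.65 to 11.1. The groups were also apart for the ratios to LAPTM5, AIF1, TYROBP, TREM2 and CD163, whereas the ratio to PTPRC overlapped, at 2.73 to 11.0 in normal and 4.38 to 23.9 in PVR samples. These ratios follow from the choice of GPNMB and carry no test.

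**Figure D4:**
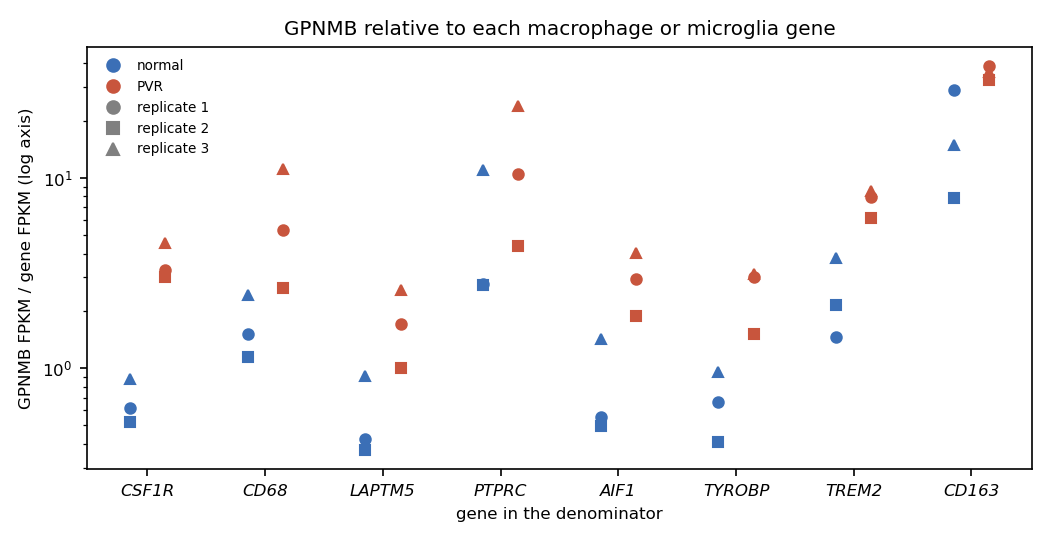
FPKM of GPNMB divided by the FPKM of each of 8 macrophage or microglia genes (vertical log axis) in 3 normal (blue) and 3 PVR (red) samples, with marker shapes for the replicate numbers. The colours are apart for all but PTPRC, whose ratio in normal replicate 3 (11.0) lies above those of PVR replicates 1 and 2 (10.5 and 4.38).

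Genes with the pattern most like that of GPNMB across the 6 samples were sought among 9515 genes with a symbol and a mean log2 CPM of at least 3, by the root mean square difference of their log2 CPM after each gene was centred on its own mean. The nearest was CEBPD, a transcription factor of the acute-phase response, at 0.215 log2 units. It was followed by CP, the copper-carrying ferroxidase ceruloplasmin, at 0.287, SERPING1, the C1 inhibitor of complement, at 0.344, EDNRB, an endothelin receptor, at 0.347 and MNDA, named for its expression in myeloid nuclei, at 0.469. All 5 were also, with GPNMB, the 6 largest increases under the same limits of expression, overlap and adjusted p by which GPNMB stood at position 3, so the likeness restates the size of that difference. Of the 9 other genes described here, the nearest to GPNMB was CD163 at 0.840 and the farthest was CSF1R at 1.25. For CSF1R the nearest genes were ALG13 at 0.0626, SCARA3 at 0.0989, TRO at 0.130, FAXC at 0.133 and FLRT2 at 0.134, none of them in the macrophage lists, and the nearest of the 10 was TYROBP at 0.383. The 5 genes from ALG13 to FLRT2 had log2 fold changes of 0.32 to 0.64, near the 0.48 of CSF1R. The measure counts a difference in the size of the change, so this likeness too partly restates that size.

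A wider list of macrophage identity genes had higher fitted values in PVR throughout, but no gene passed the thresholds with edgeR. Of 41 genes listed, 40 were found in the files and 37 had enough counts. All 37 had a log2 fold change above 0 (48.9% of all genes tested), with a median of 0.90, and 0.74 without normal replicate 3. None was called with edgeR or limma-voom, 19 had an unadjusted p under 0.05 with PVR higher (11.3% of all genes tested), and 19 did not overlap between groups with PVR higher (13.4%). Each of these counts includes CCR2 (5, 13 and 2 counts in normal), MSR1 (21, 3 and 12) and ITGAX (2, 14 and 19). They would not have passed the filter on the normal samples alone, so the filter favoured higher values in PVR. A floor of 10 counts per sample left 29 genes of the list, with a median of 0.91 and 0 called. DESeq2 called CD53, ITGAM, ITGB2, NCF1 and VSIG4, and called 519 of all 18697 genes higher. The most abundant were LCP1, an actin bundling protein of leukocytes, with a log2 fold change of 0.12 (edgeR adjusted p = 0.638), LYZ, lysozyme, with 1.03 (0.219), and CTSS, cathepsin S, with 0.75 (0.412). LYZ belongs to a family of near copies, so its count is uncertain. ITGAM, the integrin chain CD11b shared with neutrophils, had 106, 135 and 65 counts in normal and 245, 375 and 247 in PVR samples (log2 fold change 1.62, edgeR adjusted p = 0.0735). SPI1, the lineage transcription factor PU.1, had 17, 41 and 14 counts in normal and 48, 66 and 42 in PVR samples (log2 fold change 1.24, edgeR adjusted p = 0.232). Without PVR replicate 3, 1 gene of the list, ITGAM, was called, against 373 of all 19189 genes called higher in that fit.

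Genes of homeostatic microglia gave a divided picture, with 0 of 11 tested called by edgeR or limma-voom and P2RY13 called by DESeq2 (519 of all 18697 genes called higher). Of the 11, 5 had an unadjusted p under 0.05 with PVR higher and 1 with PVR lower (11.3% and 9.94% of all genes tested), and the median log2 fold change was 0.65. P2RY12, the purine receptor of resting microglia, had 264, 233 and 223 counts in normal and 404, 326 and 593 in PVR samples (log2 fold change 0.95, SE 0.19, edgeR adjusted p = 0.0602). CX3CR1, the fractalkine receptor, had a log2 fold change of 0.65 (edgeR adjusted p = 0.189), and TMEM119, a microglial surface protein, 0.83 (0.274). SALL1 went the other way, at 577, 1032 and 784 counts in normal and 340, 294 and 507 in PVR samples (log2 fold change -0.99, edgeR adjusted p = 0.0781). SALL1 is a transcription factor of microglial identity. C1QA, a complement component, and MERTK, a receptor for engulfment of dying cells, were among the most abundant of the list, at 0.66 and 0.20, and their groups overlapped. Without normal replicate 3 the median of this list was 0.35.

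Among genes of activated, lipid-laden phagocytes, in whose company GPNMB is often found, 3 of 24 tested rose past the thresholds (0.69% of all genes tested), and the median log2 fold change of the list was 0.09. At an unadjusted p under 0.05, 5 were higher in PVR and 4 lower (11.3% and 9.94% of all genes tested). MMP12, macrophage elastase, had 6, 2 and 0 counts in normal and 108, 105 and 131 in PVR samples (log2 fold change 5.45, SE 0.74, edgeR adjusted p = 0.0238). ATP6V0D2, a proton pump subunit of macrophages and osteoclasts, had 5, 3 and 3 counts in normal and 76, 118 and 22 in PVR samples (log2 fold change 4.43, SE 0.80, edgeR adjusted p = 0.0466). CTSK, the collagen-degrading cathepsin K, stood at 15.1 FPKM in normal and 32.1 FPKM in PVR samples on average (log2 fold change 1.01, SE 0.16, edgeR adjusted p = 0.0343). In the normal samples MMP12 had at most 6 counts and ATP6V0D2 at most 5. Both passed the filter on low counts only through the PVR samples. At such low normal levels a gene enters the test only if it is higher in PVR, so the filter favoured these calls. A stricter filter, with a floor of 10 counts per sample, left 22 genes of the list, and of these only CTSK was called. With samples left out in turn, MMP12 lost its call without normal replicate 2 and PVR replicates 1 and 2, and ATP6V0D2 and CTSK kept theirs only without PVR replicate 3.

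Other members of the phagocyte list had values on both sides of 0, and those named next were chosen after their values were seen. SPP1, osteopontin, had 2702, 3044 and 2384 counts in normal and 1398, 1013 and 2169 in PVR samples (log2 fold change -0.77, edgeR adjusted p = 0.0892). APOE, the lipid carrier, had a log2 fold change of 0.25 (edgeR adjusted p = 0.572), and its groups overlapped. CD36, a scavenger receptor for oxidised lipid, had a log2 fold change of 1.34 (edgeR adjusted p = 0.0859), and DESeq2 called it. FABP5 and LGALS3 had 48591 and 614 counts in normal replicate 2, the sample with lens transcripts, against at most 710 and 55 in the other normal samples. Without that sample their log2 fold changes went from -4.12 and -0.21 to 0.59 and 2.44, with adjusted p of at least 0.115 from edgeR in all fits with a sample left out. The list's median was 0.21 without normal replicate 2, -0.06 without normal replicate 1 and -0.02 without PVR replicate 1.

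**Figure D5:**
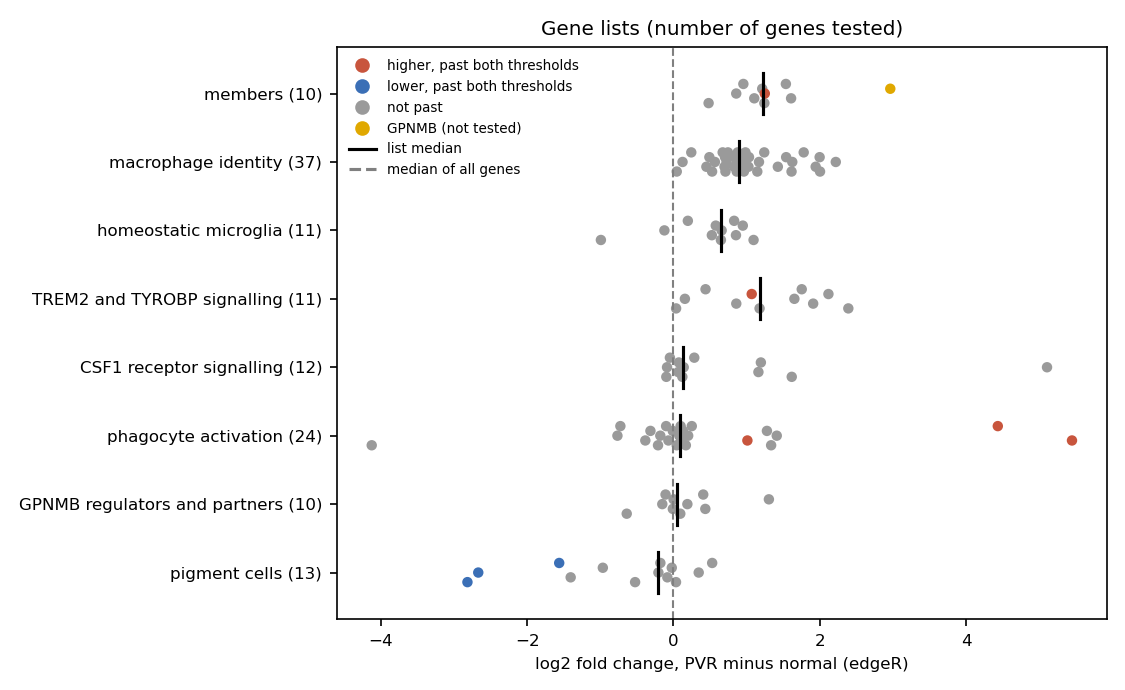
Log2 fold change of PVR minus normal from edgeR (horizontal axis) for each tested gene (points) of the 10 genes and 7 wider lists (rows, with the number of genes tested), with genes past both thresholds in red (higher) or blue (lower), GPNMB in yellow, list medians as black lines and the median of all genes as a dashed line. The macrophage identity points all lie to the right of 0 around a median of 0.90, whereas the phagocyte activation list centres at 0.09 with MMP12 and ATP6V0D2 far to the right.

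Downstream of CSF1R and around it, 0 of 12 tested genes were called by edgeR, DESeq2 or limma-voom. An unadjusted p under 0.05 with PVR higher was found for 4 (11.3% of all genes tested), and the median log2 fold change was 0.13. The widely expressed adaptors and enzymes GRB2, PIK3R1 and CBL, the most abundant of the list, had log2 fold changes of 0.07, -0.09 and 0.14. The 4 largest values belonged to genes of blood cells. CSF2RB, the shared beta chain of the receptors for GM-CSF, IL-3 and IL-5, had 0, 0 and 2 counts in normal and 10, 36 and 31 in PVR samples, at least 9.05-fold higher against a limit of 3 counts per library (edgeR adjusted p = 0.0634). CSF2RB, among the 4 with an unadjusted p under 0.05, passed the filter on low counts only through the PVR samples. The filter therefore favoured its higher value in PVR. CSF2RA, the alpha chain for GM-CSF, had a log2 fold change of 1.62 (edgeR adjusted p = 0.151). The phosphatases INPP5D and PTPN6, which damp signalling in leukocytes, had log2 fold changes of 1.20 (0.167) and 1.16 (0.174). CSF2 itself had no count in any sample.

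Among partners of TREM2 and TYROBP, 1 of 11 tested genes rose past the thresholds (0.69% of all genes tested). The median log2 fold change was 1.18, and 0.91 without normal replicate 3. The gene was CLU, clusterin, a lipid-carrying chaperone that binds TREM2 and that glia and neurons also make. CLU had 425 FPKM in normal and 939 FPKM in PVR samples on average (log2 fold change 1.07, SE 0.10, edgeR adjusted p = 0.00733), and lost the call only without PVR replicate 1 (adjusted p = 0.0949). All 11 had log2 fold changes above 0 (48.9% of all genes tested), and 5 had an unadjusted p under 0.05 with PVR higher (11.3%). DESeq2 called 5, namely CLU, BTK, CLEC5A, MS4A4A and PLCG2, where it called 519 of all 18697 genes higher. With edgeR 2 were called without normal replicate 3 (211 of all 19187 genes higher) and 2 without PVR replicate 3 (373 of all 19189). PLCG2, the phospholipase that acts below TREM2, had 30, 53 and 61 counts in normal and 143, 184 and 113 in PVR samples (log2 fold change 1.75, SE 0.39, edgeR adjusted p = 0.0725). CLEC5A, a lectin receptor that also pairs with TYROBP, had a log2 fold change of 2.12 (edgeR adjusted p = 0.087), and SYK, the kinase recruited to TYROBP, 1.65 (0.276).

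Known regulators and partners of GPNMB gave no calls among 10 tested, also with DESeq2 and limma-voom. At an unadjusted p under 0.05, 3 were higher in PVR and 1 lower (11.3% and 9.94% of all genes tested). MITF, the transcription factor that gives the family its name, had a log2 fold change of 0.00 (SE 0.15, edgeR adjusted p = 0.995). Its relatives TFEB and TFE3 had 0.19 and -0.15, with overlapping groups. TFEC, the relative found mainly in macrophages, had 90, 131 and 31 counts in normal and 133, 226 and 230 in PVR samples (log2 fold change 1.31, edgeR adjusted p = 0.195). An adjusted p under 0.05 without the fold threshold was reached by 2 genes with PVR higher (1.09% of all genes tested) and 1 with PVR lower (0.615%). These were SDC4, a heparan sulphate proteoglycan that binds GPNMB, at 0.44 (edgeR adjusted p = 0.0415), CD44, the hyaluronan receptor, at 0.41 (0.0478), and FLCN, which holds TFEB and TFE3 in the cytoplasm, at -0.64 (0.0461). FLCN kept an adjusted p under 0.05 in at least one of the fits with a sample left out, with values from 0.0489 to 0.227, and SDC4 and CD44 did so in none. ADAM10, which sheds GPNMB from the cell surface, had a log2 fold change of -0.01.

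Pigment cells of the retinal pigment epithelium and choroid also make GPNMB, and none of their genes was called higher. Of 13 tested, 3 fell past the thresholds (0.316% of all genes tested), and the median log2 fold change was -0.21. The 3 were TTR, the thyroxine and retinol carrier, at -1.56 (edgeR adjusted p = 0.0478), LRAT, a visual cycle enzyme, at -2.82 (0.0459), and SOX10, a melanocyte and glial transcription factor, at -2.67 (0.0402). With samples left out in turn, TTR and LRAT kept the call only without normal replicate 3 and SOX10 only without normal replicate 1. The median was -1.02 without PVR replicate 3. The melanin genes TYR, MLANA and OCA2 had log2 fold changes of -0.52, -0.18 and -0.02 with overlapping groups. At an unadjusted p under 0.05, 5 of the 13 were lower and 1 was higher in PVR (9.94% and 11.3% of all genes tested). Log2 fold changes were above 0 for 3 of the 13 (48.9% of all genes tested). The gene that was higher, named after its value was seen, was BEST1, a chloride channel of the pigment epithelium, at 0.53 without overlap between groups (edgeR adjusted p = 0.215). Summed FPKM over the 15 pigment genes was 159 to 277 in normal and 99.7 to 114 in PVR samples, and their part in the GPNMB values was not tested beyond these levels.

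Some genes of neutrophils rose in the same samples. Of 9 tested, S100A8, S100A9, S100A12 and FPR1 were called higher (0.69% of all genes tested). The log2 fold change was above 0 for 8 of the 9 (48.9% of all genes tested) and below 0 for 1, at -1.67. FPR1 had at most 3 counts in any normal sample, so it passed the filter on low counts only through the PVR samples. With a floor of 10 counts in every sample, S100A8, S100A12 and FPR1 left the test, and S100A9 was still called. The filter may therefore have favoured the calls of S100A8 and S100A12 too. Summed FPKM over the 12 genes found was 1.64 to 3.94 in normal and 16.9 to 38.0 in PVR samples. S100A9 had 32, 36 and 13 counts in normal and 186, 257 and 130 in PVR samples (log2 fold change 2.96, SE 0.50, edgeR adjusted p = 0.0416). With samples left out in turn, S100A8 lost its call without normal replicate 2 and PVR replicates 1 and 2, S100A9 and S100A12 lost theirs without these and normal replicate 1, and FPR1 lost its call in all 6 fits. With limma-voom only FPR1 of these was called, and S100A8, S100A9 and S100A12 had adjusted p of 0.0624, 0.0831 and 0.0601. S100A8, S100A9 and FPR1 are also made by monocytes, whereas MPO and MMP8, which are made in neutrophil precursors, had no count in any sample. Over 11 platelet and red cell genes, which bear on the injected plasma and on blood in the tissue, summed FPKM was 48.8 to 52.3 in normal and 23.0 to 37.0 in PVR samples. None of the 8 tested was called with edgeR. At an unadjusted p under 0.05, 1 was higher in PVR and 1 lower (11.3% and 9.94% of all genes tested). DESeq2 called HBA, a haemoglobin chain, lower, as edgeR did without PVR replicate 3. TREML1, a platelet gene, had no count in any sample. The part of neutrophils, platelets and blood in the values of the 10 genes was not tested.

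The remaining lists describe the tissue around these cells. Calls of lower genes in these lists stand beside 0.316% of all genes tested. Of 8 genes of Mueller glia and astrocytes, GLUL, glutamine synthetase, was called lower, and summed FPKM was 1008 to 1323 in normal and 1019 to 1072 in PVR samples. None of 11 retinal neuron genes was called with edgeR or DESeq2 in all samples (PRPH2 was called lower without normal replicate 3). An unadjusted p under 0.05 with PVR lower was found for 6 (9.94% of all genes tested), and the median log2 fold change was -0.32. Oligodendrocyte genes had a summed FPKM of 69.0 to 399 in normal and 39.5 to 48.3 in PVR samples, with MAG and MOBP of the 5 called lower. Of 6 endothelial genes VWF and CDH5 were called lower, and the summed level, mostly KDR, was 64.1 to 71.9 in normal and 74.5 to 77.5 in PVR samples. CDH5 had at most 3 counts in any PVR sample, so it passed the filter on low counts only through the normal samples. With samples left out in turn, GLUL lost its call without normal replicate 3 and PVR replicate 1, MAG kept its call only without normal replicates 1 and 3, MOBP lost its call without normal replicate 2 and PVR replicates 1 and 2, VWF lost its call without PVR replicate 1, and CDH5 without normal replicate 2 and PVR replicates 1 and 2. With limma-voom GLUL and CDH5 were called, and VWF, MAG and MOBP were not. Lens genes were called in neither direction (0 of 8 with edgeR and DESeq2). An unadjusted p under 0.05 with PVR lower was found for 1 (9.94% of all genes tested). However, 6 of these genes, all with fitted values below 0 in the fit of all samples, were called higher without normal replicate 2. The part of these cells in the values of the 10 genes was not tested either.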

How the data were processed

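The 6 libraries (3 normal, 3 PVR) were grouped by their titles. Per the labels and the study's methods, reads were trimmed with fastp, mapped with HISAT2 (rabbit build OryCun2.0) and assigned to genes by HTSeq, and the authors deposited whole-number counts and FPKM values for 28788 genes. The strand setting and annotation release are not given in the sources used here, so overlapping and antisense genes cannot be told apart. The labels name a VAHTS library kit and the methods a NEBNext kit. The FPKM values deposited by the authors fit the counts divided by library size and a gene length that was the same in every sample. Levels are given in FPKM and tests were run on the counts. Positions and sequences are not given here, as no genome of this build was used.

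Genes were filtered with filterByExpr, scaled by TMM and tested with edgeR's quasi-likelihood test (edgeR 4.0.16, R 4.3.3), with group as the only term and Benjamini-Hochberg adjustment over 18697 genes. A gene was called where its adjusted p was below 0.05 and its log2 fold change passed 1 in either direction, the thresholds of the study, which used DESeq2. Standard errors were derived from the F statistics. Alternatives were DESeq2 1.42.0, limma-voom (limma 3.58.1), other scaling factors, no filter, at least 10 counts in every sample, log2(FPKM + 1), log2(FPKM + 0.1), the replicate number as a block, the adjusted p alone and each sample left out. The test scripts were tested on simulated data. Replicate samples differed from each other by far more than sampling noise (chi-square per degree of freedom 20.9 to 198), so no library was present in duplicate. Counting error is small beside the spread between samples at 31904593 to 43035080 counts, except for genes under about 30 counts.

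The 10 genes, the lists and the tests were chosen with earlier results of these data known. Listed genes were matched by symbol or by a RefSeq gene identifier (assembly mOryCun1.1, names only), and unmatched genes were not analysed here. From each of the 7 wider lists, the text names up to 3 genes past the thresholds in each direction, otherwise the 3 with the highest FPKM, and genes of textbook role with their values. Of 9 lists of other cells, defining markers are named. A few genes that this rule would name are not reported here.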

Additional observations from a re-analysis of the deposited data

How the results depend on the processing

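Of the 9 genes tested beside GPNMB, 1 passed the thresholds. This became 4 with DESeq2, 0 on the log2(FPKM + 1) and log2(FPKM + 0.1) scales, and 0 to 1 with a sample left out. Macrophage identity genes went from 0 to 5 and homeostatic microglia genes from 0 to 1 with DESeq2, and the former to 0 to 1 with a sample left out. Phagocyte activation genes went from 3 to 1 with at least 10 counts in every sample and to 0 to 3 with a sample left out. Partners of TREM2 and TYROBP went from 1 to 5 with DESeq2, to 0 to 2 with a sample left out and to 2 on the log2(FPKM + 0.1) scale. Regulators and partners of GPNMB went from 0 to 3 by adjusted p alone. Pigment cell genes went from 3 to 0 with limma-voom and on both FPKM scales, and to 0 to 3 with a sample left out. The log2 fold change of GPNMB was 2.52 on the log2(FPKM + 1) scale, which understates changes of low genes. Among the 9 genes and the wider lists, no gene called with all samples changed direction; 6 lens genes, not called with all samples, turned from lower to higher without normal replicate 2.

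Whether the replicate numbers pair the samples is not given in the sources used here. The deviations of samples with the same number correlated at -0.01, 0.07 and 0.04, and those with different numbers at -0.08 to 0.04. With 3 samples per group these values cannot tell paired from unpaired samples. With the replicate number as a block, the genes past the thresholds were 0 of the 9, 0 phagocyte activation genes and 0 pigment cell genes, and 56 higher and 26 lower among all genes in place of 129 and 59. CSF1 then had an adjusted p of 0.0954 from edgeR. Of the other cells, the block lost the calls of S100A8 (0.055), FPR1 (0.0999), MAG and MOBP, and gained JCHAIN as higher in PVR (log2 fold change 1.63, adjusted p = 0.0355 from edgeR). Over all genes, DESeq2 gave 519 higher and 212 lower, and fits with a sample left out gave from 16 higher and 6 lower without PVR replicate 1 to 373 and 63 without PVR replicate 3. Groups of 3 limit every test, and the low counts of CD163 and of CSF2RB in the normal samples limit their precision.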
